A study of Homo sapiens with 8 samples.

Results

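The transcripts of 40 heat shock proteins, cytosolic and mitochondrial chaperones and their partners were followed in A375 human melanoma cells with and without serum. The genes were taken by symbol from a list of chaperone families, with Ensembl identifiers matched to symbols, and all 40 were found among the 58051 genes of the count files. Each of the 40 passed the filter on low counts that left 17671 genes to be tested. The groups were the heat shock factors, HSP70 with its HSP110 relatives, HSP90, HSP40, small heat shock proteins, mitochondrial chaperones, the CCT ring and co-chaperones.

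A375 cells carry the labels WT1 to WT4 for 4 lines, and WT is the study's short form of *NECTIN1* wild type. Each line was grown from a single cell, so that it is a clone and a difference between lines may be clonal. Every line was rinsed and kept for 12 h in DMEM that held either 10% fetal bovine serum (FBS) or no serum, which gave 1 library per line and condition and 4 libraries per group. No drug, knockout or transgene is given for these libraries. In the study, serum withdrawal made *NECTIN1*-wild-type melanoma cells form new contacts, which *NECTIN1*-deficient cells failed to form. The study used it to look for secreted factors linked to those contacts. The chaperone genes were read here from the same total RNA, sequenced after depletion of ribosomal RNA.

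Chaperones bind unfolded or partly folded proteins and use cycles of ATP binding and hydrolysis to help them fold, and some hand proteins on for degradation. HSP70 proteins work with HSP40 partners that deliver substrates and stimulate ATP hydrolysis, HSP90 acts later on kinases and receptors that are nearly folded, and the CCT ring encloses actin and tubulin. Heat shock factor 1 (HSF1) switches on many of these genes under proteotoxic stress by binding repeated GAA units in their promoters, the heat shock element.

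The sequences below are shown because they are the stretches of chaperone promoters that match a canonical heat shock element exactly. The pattern GAANNTTCNNGAA and its reverse complement TTCNNGAANNTTC, 3 alternating GAA units spaced by 2 bases, were searched in RefSeq windows from 250 bases before to 50 bases after each annotated transcript start (build GRCh38.p14). Of the 40 chaperone genes, 34 were in the table, and 7 of these (20.6%) held the pattern, against 0.608% of the 27305 genes in the table. *HSF1*, *HSPA14*, *CRYAB*, *CCT6A*, *ST13* and *FKBP4* were not in the table. Each sequence is written 5′ to 3′ on the strand of its gene, and capitals mark the matched element, where overlapping matches are merged. A match is only a match of letters in this window. Only the exact pattern was searched, and *HSPA1A*, *HSPA1B*, *DNAJB1*, *HSPH1* and *BAG3* were among the genes searched without a match. This does not show that they lack a heat shock element.
HSPA8, chr11:123062159-123062211, minus strand: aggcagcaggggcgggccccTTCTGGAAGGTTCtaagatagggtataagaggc
HSPA8, chr11:123062334-123062386, minus strand: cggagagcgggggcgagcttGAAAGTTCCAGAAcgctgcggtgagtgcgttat
HSP90AA1, chr14:102087100-102087152, minus strand: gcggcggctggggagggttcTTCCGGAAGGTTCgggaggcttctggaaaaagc
HSP90AB1, chr6:44247770-44247798, plus strand: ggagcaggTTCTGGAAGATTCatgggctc
HSP90AB1, chr6:44247823-44247851, plus strand: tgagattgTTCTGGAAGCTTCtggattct
DNAJA1, chr9:33025268-33025296, plus strand: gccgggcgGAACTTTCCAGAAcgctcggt
DNAJB6, chr7:157336853-157336905, plus strand: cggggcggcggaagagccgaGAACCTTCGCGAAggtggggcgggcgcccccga
HSPD1, chr2:197500062-197500090, minus strand: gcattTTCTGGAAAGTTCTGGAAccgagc
CHORDC1, chr11:90223067-90223129, minus strand: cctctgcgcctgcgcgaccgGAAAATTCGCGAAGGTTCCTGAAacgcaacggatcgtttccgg
Distances are to the transcript start on which each window was placed. The elements of *HSPA8* began 55 and 230 bases before that start, the element of *HSP90AA1* 88 bases and that of *CHORDC1* 60 bases. For *HSPA8*, *HSP90AA1*, *HSP90AB1* and *HSPD1* the annotated gene reaches further 5′ than these elements. The start used for each of them, and its elements, therefore lie inside the annotated gene. The element of *DNAJA1* lay within the first bases of the transcript, from base 4 to base 16. *CHORDC1* had the longest run, 23 bases made of 3 overlapping matches.

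The libraries held between 29759279 and 73341551 reads counted on genes, and *HSPA8* alone took between 96474 and 309777 of them. Levels are counts scaled to library size (CPM) by TMM, and adjusted p-values come from quasi-likelihood tests in edgeR over all 17671 genes, which measure the spread between the 4 clones. The share of reads that aligned to several places, which the authors left uncounted, reached 22.7% and 16.8% in the serum libraries of WT1 and WT2 and lay between 5.73% and 10.1% in the other 6. Annotated pseudogenes of 22 chaperone genes, 135 in all, held at most 0.808% of the count of their parent gene with serum and at most 1.4% without, both for *HSPE1*. Reads that match a gene and its pseudogene alike are left uncounted, so these shares cannot show how many such reads were lost. Of the melanocyte lineage markers, *MITF* was at 40.2 ± 3.89 CPM with serum (SD, n = 4) and at 33.1 ± 2.58 CPM without, and was called lower (log2 fold change -0.28, edgeR's adjusted p = 0.0496), the 1 call among the 6 markers tested without the block. With the replicate block *MITF* and *DCT* were called lower and *S100B* and *PAX3* higher, and with the GC correction added *MITF* lower and *PAX3* higher. Their part in the chaperone results was not tested. *TYR* had at most 4 counts and *PMEL* and *MLANA* were near 1 CPM. *SOX10* was listed at 0 in every library, and since the strand setting and annotation of the counting are not given, whether the gene was absent or not counted cannot be told apart, although 5.4% of its exon bases lie within another annotated gene. Markers of other cell types (7 of 8 matched) summed to between 16.5 and 24.0 CPM with serum and between 13.1 and 23.1 CPM without, mostly from *KRT14* at 17.2 and 15.4 CPM, and *PTPRC*, *EPCAM* and *ALB* had between 0 and 10 counts. With the GC correction and the replicate block *KRT14* was called lower (log2 fold change -0.37, edgeR's adjusted p = 0.00176), and its part in the chaperone results was not tested.

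After 12 h without serum, most chaperone transcripts were lower. At an adjusted p under 0.05, 28 of the 40 genes fell, while 14.0% of all tested genes did. None was called higher by edgeR, DESeq2 or limma's voom, although edgeR called 11.1% of all tested genes higher. At an unadjusted p under 0.05 edgeR gave 32 lower genes of the 40 and 1 higher, *UNC45A*. The share of all tested genes past this unadjusted threshold was not counted. With the line as a replicate block, 32 fell and 1, *UNC45A*, rose, beside 22.4% and 23.2% of all tested genes. With upper-quartile scaling, 26 fell and 1 rose, while over all tested genes 1843 were lower and 2508 higher, against 2477 and 1957 with TMM. The median log2 fold change was -0.47 over the chaperone genes and 0.03 over all tested genes. For 32 genes the level was lower in all 4 lines, a count that was not made over all tested genes. For 28 genes every serum-free library lay below every serum library, which held for 15.0% of all tested genes. The opposite order held for 0 chaperone genes and for 12.6% of all tested genes. Together the 40 genes took between 2.04% and 2.40% of the counted reads with serum and between 1.45% and 1.67% without, and these ranges did not overlap. A large part of these totals came from *HSPA8*, *HSP90AA1* and *HSP90AB1*. In WT1 these genes took 0.493%, 0.377% and 0.288% of the counted reads with serum and 0.257%, 0.219% and 0.249% without. In RNA from whole cultures, fewer cells that express a gene and less of its RNA per cell cannot be told apart.

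**Figure D1:**
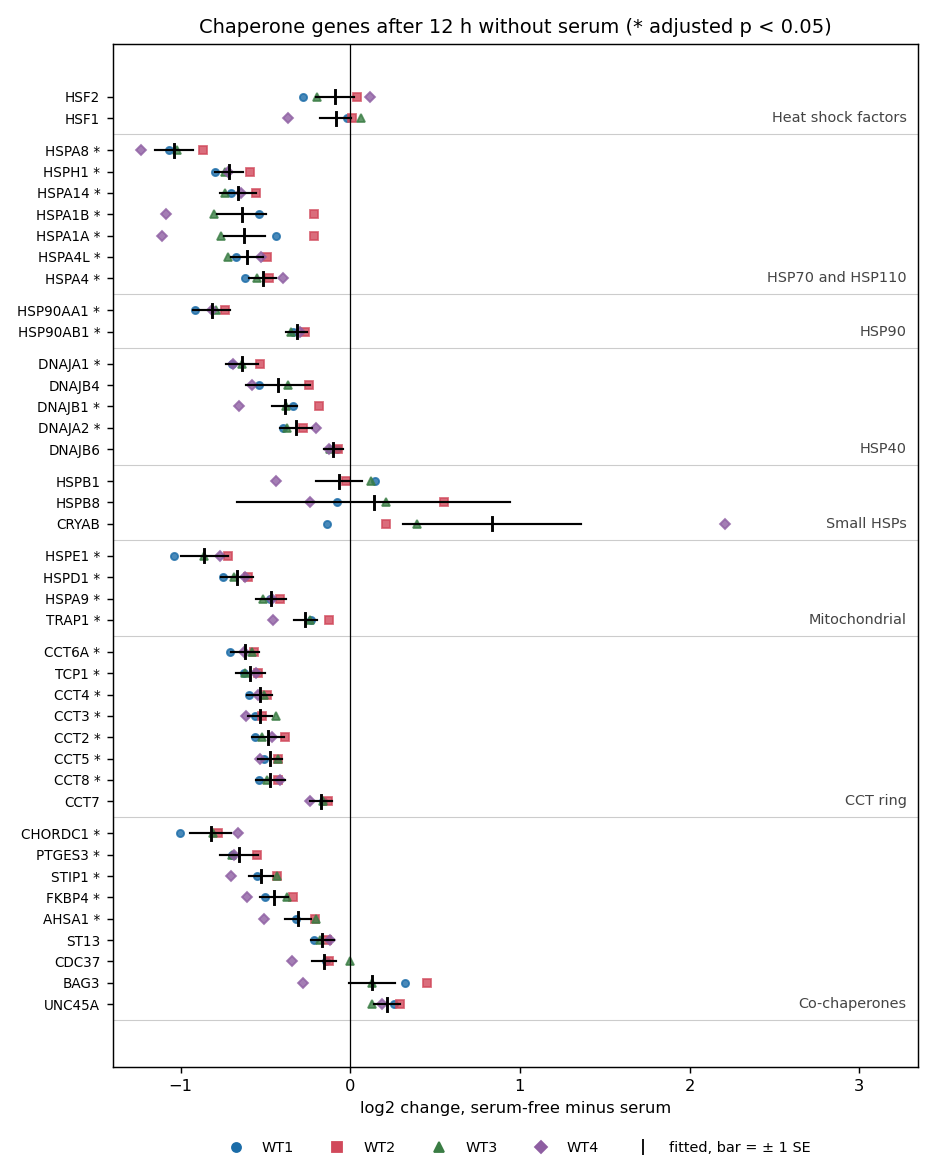
Log2 change without serum (x axis, serum-free minus serum) of each chaperone gene (rows, by group) in the lines WT1 to WT4 (coloured symbols), with the fitted log2 fold change (black tick) and 1 SE on either side (bar). The HSP70, HSP90, mitochondrial and CCT genes lie to the left of 0 in all 4 lines, while the small heat shock proteins and both heat shock factors lie on both sides of 0.

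The calls were also set beside technical features of the libraries. Without the serum libraries of WT1 and WT2, which had the largest shares of reads aligned to several places, 20 of the 40 genes were called lower, beside 3.88% of all tested genes. *HSPA1B*, *HSP90AB1*, *DNAJA2*, *HSPA9*, *TRAP1*, *CCT2*, *CCT8* and *AHSA1* lost their calls there, with their direction kept, and the part that the uncounted reads have in the result was not tested. Without both libraries of WT4, 29 of the 40 genes were called lower, beside 17.4% of all tested genes. GC-rich transcripts also had the higher fold changes: Spearman's rho between GC content and log2 fold change was 0.36 across 17425 genes and 0.52 across the 40 chaperone genes (a description, since genes of one set of libraries are not independent). With a correction for GC content and the replicate block together, 33 of the 40 fell, beside 22.5% of all tested genes, and their median log2 fold change was -0.41.

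The heat shock factors are the transcription factors of the pathway. *HSF1*, the main activator of the stress response, was at 99.1, 104, 102 and 131 CPM with serum in WT1 to WT4 and at 97.9, 104, 107 and 101 CPM without. The groups overlapped, the library of WT4 with serum was the high one, and the log2 fold change was -0.09 (SE 0.09, edgeR's adjusted p = 0.526). *HSF2*, a partner of HSF1 with roles in development, was at 16.9 ± 2.39 CPM with serum and 15.8 ± 0.68 CPM without (SD, n = 4), with an adjusted p of 0.589 in edgeR. Both missed the threshold also at an unadjusted p and in DESeq2 and voom. With the GC correction and the replicate block, *HSF1* was called lower (log2 fold change -0.34, edgeR's adjusted p = 9.88e-06), so this call depends on whether GC content is corrected.

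All 7 genes of the HSP70 group fell, by a median log2 fold change of -0.64. *HSPA8* (ENSG00000109971, chromosome 11, 123057489 to 123062462), which encodes the constitutive cytosolic HSC70, was the most abundant chaperone transcript by counts with serum and had the lowest fitted log2 fold change of the 40 genes. Its level was 5178, 4714, 5025 and 4279.5 CPM with serum in WT1 to WT4 and 2469, 2582, 2478 and 1822 CPM without. The groups did not overlap, and WT4 was the lowest line in both. Without serum its mean of 2338 ± 347 CPM was close to that of *HSP90AB1* (2313 ± 74.4 CPM, SD, n = 4), which was the higher gene in WT4. The fall was 2.05-fold, or -1.04 on the log2 scale (SE 0.11, edgeR's adjusted p = 0.000945). In CPM, its loss of 2461 ranked at 2 among all tested genes. Per length of its merged exons, the level of *HSPA8* went from 990 ± 81.8 RPKM (SD, n = 4) to 482 ± 71.6 RPKM, and its rank among expressed genes went from 10 to 43.

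By counted reads, the stress-inducible HSP70 copies were low beside *HSPA8*. *HSPA1A* and *HSPA1B* lie beside each other on chromosome 6 (31815543 to 31817942 and 31827738 to 31830254) and encode nearly the same protein, so reads shared by both may be missing or split. *HSPA1A* was at 72.2, 65.9, 76.3 and 88.4 CPM with serum and at 53.3, 56.8, 45.0 and 41.0 CPM without. *HSPA1B* was at 87.1, 69.6, 76.7 and 83.1 CPM with serum and at 60.0, 59.9, 43.95 and 39.0 CPM without. Neither gene overlapped between the groups, and the smallest falls were in WT2 (log2 change -0.22 for each) and the largest in WT4 (-1.11 and -1.09). Their log2 fold changes were -0.63 and -0.64 (edgeR's adjusted p = 0.00622 and 0.0123). Without both libraries of WT3 neither passed the threshold, with adjusted p-values of up to 0.0543 for *HSPA1A* and 0.0761 for *HSPA1B* over all alternatives. *HSPA6*, a further member of the family, was at 1.66 CPM with serum and 2.40 CPM without, and edgeR did not call it without the block (adjusted p = 0.131). With the replicate block *HSPA6*, a strictly inducible HSP70, was called higher (log2 fold change 0.54, edgeR's adjusted p = 0.0282), and with the GC correction added it was not (0.114).

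Of the other HSP70 relatives, *HSPH1*, an HSP110 protein that exchanges nucleotide on HSP70, fell 1.64-fold (log2 fold change -0.72, SE 0.08, edgeR's adjusted p = 0.000996). It was at 804, 695, 776 and 664 CPM with serum and at 463, 461, 464 and 403 CPM without, so that 3 of the serum-free libraries lay within 4 CPM of each other and WT4 stood below them. *HSPA4*, another HSP110 protein, fell from 506 ± 49.6 to 354 ± 17.2 CPM (SD, n = 4). *HSPA4L* was low, at 24.6 CPM with serum, and fell to 16.1 CPM, and *HSPA14*, which acts on chains leaving the ribosome, fell from 56.9 to 35.9 CPM. The adjusted p-values of these 3 genes were between 0.00251 and 0.00293 in edgeR, and each was lower in all 4 lines.

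Both cytosolic HSP90 genes fell, to unequal extents. *HSP90AA1* (chromosome 14, 102080742 to 102139749), the more stress-inducible form, was at 3964, 3344, 3580.2 and 2892 CPM with serum and at 2097, 2004, 2066 and 1646 CPM without. *HSP90AB1* (chromosome 6, 44246194 to 44253883), the constitutive form, was at 3026, 2700.4, 3011 and 2781 CPM with serum and at 2392, 2239.5, 2360.4 and 2260.5 CPM without. Neither gene overlapped between conditions, and *HSP90AA1* kept 56.7% of its serum level against 80.3% for *HSP90AB1*. The log2 fold changes were -0.82 (SE 0.11, edgeR's adjusted p = 0.00164) and -0.32 (SE 0.06, adjusted p = 0.00586). By counts *HSP90AA1* was the higher with serum and *HSP90AB1* the higher without. Per merged exon length *HSP90AB1* was above *HSP90AA1* in both, at 966 against 676 RPKM with serum and 776 against 383 RPKM without. With the length of the longest transcript the serum levels were 1077 and 982 RPKM, in the same order.

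**Figure D2:**
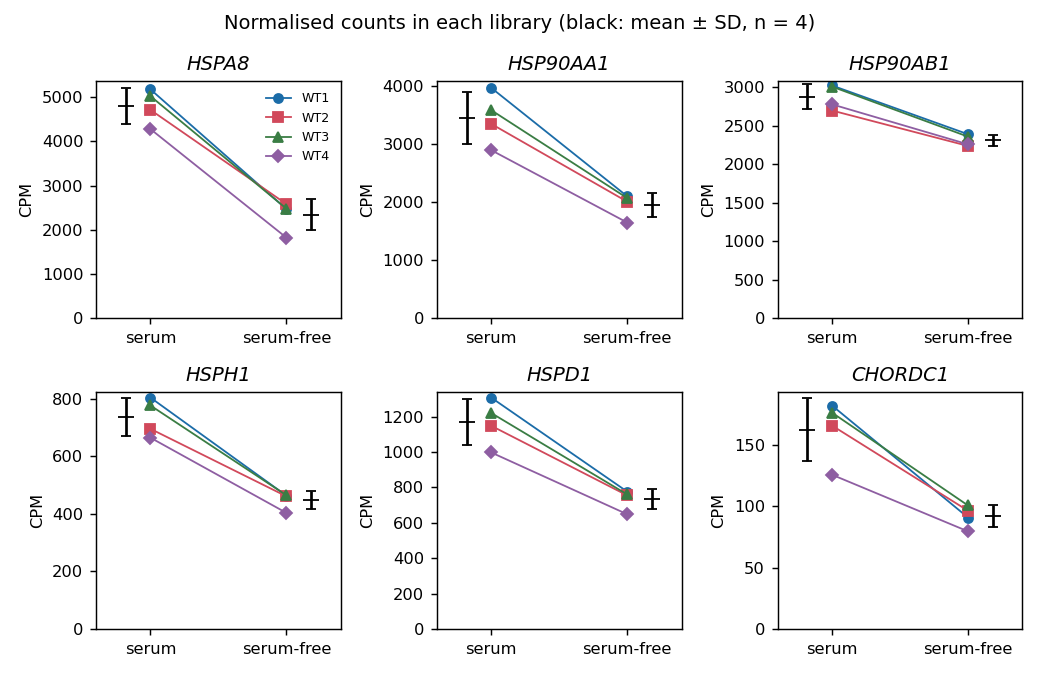
CPM (y axis, from 0) of 6 chaperone genes with serum and without serum, 1 coloured line per A375 clone, and the mean ± SD of the 4 libraries in black. In each panel the 4 serum-free libraries lie below the 4 serum libraries, and the serum-free library of WT4 is the lowest for *HSPA8*, at 1822 CPM, while *HSP90AB1* falls least.

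Of the HSP40 genes, which carry the J domain that stimulates HSP70, 3 of 5 fell. *DNAJA1* was at 504, 422, 464 and 400.4 CPM with serum and at 310.4, 293, 298 and 248 CPM without, with no overlap. It fell 1.56-fold (log2 fold change -0.64, SE 0.09, edgeR's adjusted p = 0.00213). *DNAJB1*, the classical HSP40 of the heat shock response, went from 257 ± 16.4 to 196 ± 14.5 CPM (SD, n = 4), and its log2 fold change was -0.39 (adjusted p = 0.00622 in edgeR). *DNAJA2* passed with all libraries (log2 fold change -0.32, edgeR's adjusted p = 0.0340) but lost its call in 9 of 12 leave-one-out fits (1 library or 1 line each), at adjusted p-values of up to 0.226 over all alternatives. *DNAJB4*, at 19.6 CPM with serum and 14.6 CPM without, was lower in all 4 lines, with an adjusted p in edgeR of 0.122 without and 0.000785 with the replicate block. It was also called lower without both libraries of WT4, and the call of the block was lost once GC content was corrected (log2 fold change -0.11, edgeR's adjusted p = 0.318). *DNAJB6*, which suppresses protein aggregates, was at 217 ± 6.01 and 203 ± 6.54 CPM (SD, n = 4, edgeR's adjusted p = 0.220), and it was called lower with the GC correction and the replicate block (log2 fold change -0.21, edgeR's adjusted p = 0.000580).

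The small heat shock proteins, which hold unfolded proteins without ATP, gave no call in edgeR, DESeq2 or voom, and none was past an unadjusted p of 0.05. *HSPB1* (HSP27) was at 95.5, 109, 117 and 154 CPM with serum and at 106, 107, 127 and 114 CPM without. It was lower in WT4, by -0.44 on the log2 scale, and its log2 fold change was -0.07 (SE 0.14, edgeR's adjusted p = 0.756). With the GC correction and the replicate block *HSPB1* was called lower (log2 fold change -0.31, edgeR's adjusted p = 0.000102). *HSPB8*, a partner of BAG3 in selective autophagy, was at 12.9, 10.0, 1.22 and 7.43 CPM with serum and 12.2, 14.7, 1.41 and 6.29 CPM without. WT3 was the low line in both conditions. *CRYAB*, at 4 to 45 counts per library, was under 1 CPM throughout and too low to compare (edgeR's adjusted p = 0.273).

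All 4 mitochondrial chaperone genes fell. *HSPD1* (HSP60) and *HSPE1* (HSP10) encode the folding chamber of the matrix and its lid, and they lie head to head on chromosome 2 (197486584 to 197500274 and 197500379 to 197503449). *HSPD1* was at 1307, 1148, 1220.3 and 997 CPM with serum and at 776, 755, 760 and 648 CPM without. *HSPE1* was at 77.9, 60.0, 73.8 and 51.7 CPM with serum and at 38.0, 36.3, 40.5 and 30.3 CPM without. Neither overlapped between conditions, and WT4 was the lowest line of both genes in each condition. The log2 fold changes were -0.67 (SE 0.09, edgeR's adjusted p = 0.00188) and -0.86 (SE 0.14, adjusted p = 0.00301). The exons of *HSPE1* share 17.9% of their bases with other annotated genes, among them a read-through transcript, so its counts may be incomplete. Reads shared with the 26 annotated pseudogenes of *HSPE1* and the 18 of *HSPD1* may also be missing. *HSPA9* (mortalin), the HSP70 of the matrix, fell from 644 ± 58.6 to 465 ± 41.8 CPM (SD, n = 4, log2 fold change -0.47, edgeR's adjusted p = 0.00558). *TRAP1*, the mitochondrial HSP90, fell least of the 4 without a GC correction (log2 fold change -0.26, edgeR's adjusted p = 0.0204). It lost its call in 7 of the 12 leave-one-out fits, and has 28.5% of its exon bases within other genes. With the GC correction and the replicate block *HSPA9* fell least, at a log2 fold change of -0.36 against -0.39 for *TRAP1*.

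The CCT ring is built of 8 different subunits, each from its own gene, in equal numbers. Of the 8 genes, 7 fell, with log2 fold changes between -0.47 and -0.62 and adjusted p-values between 0.00148 and 0.00592 in edgeR. *CCT6A* fell furthest without a GC correction, 1.54-fold, from 727 ± 69.98 to 472 ± 34.1 CPM (SD, n = 4). With the GC correction and the replicate block *CCT3* fell furthest, at a log2 fold change of -0.59 against -0.51 for *CCT6A*. *CCT3* was at 757, 699, 776 and 762 CPM with serum and at 512, 488, 572 and 497 CPM without. *TCP1*, the first subunit described, was at 550.0, 498, 519 and 435 CPM with serum and at 357, 341, 338 and 295 CPM without. For each of the 7 genes, all serum-free libraries were below all serum libraries. The remaining subunit, *CCT7*, was at 575, 537, 610.1 and 584 CPM with serum and at 513, 489, 546 and 495 CPM without, and these groups overlapped in 1 library of each. Its log2 fold change was -0.17 (SE 0.06), which missed the threshold without the replicate block (edgeR's adjusted p = 0.0730) and passed with it (0.00987). Within lines, *CCT7* was lower by between -0.13 and -0.24 on the log2 scale and the other subunits by between -0.38 and -0.71, ranges that did not meet, although the difference itself was not tested.

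Per merged exon length the 8 subunits lay between 102 and 194 RPKM with serum and between 68.2 and 143 RPKM without. *CCT3* was the highest with serum (194 RPKM) and *CCT7* the highest without (143 RPKM), and *TCP1* the lowest in both. With the longest transcript's length, *CCT7* was at 284 RPKM with serum and *CCT6A* at 281 RPKM, so the order of the levels depends on the length used. Across the 8 libraries the log2 CPM of pairs of subunits correlated with a median Pearson's r of 0.97 over 28 pairs, from 0.769 to 0.997, which the shared difference between conditions and the shared libraries raise. The genes outside the chaperones that were most like the mean of the 8 subunits were *PRPF4*, *VDAC1* and *PAICS*, at a Pearson's r of 0.999, 0.998 and 0.997 over 8 libraries, as a description. *CCT5* shares 30.8% of its exon bases with other annotated genes, and *TCP1* and *CCT4* share 12.4% and 10.2%.

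**Figure D3:**
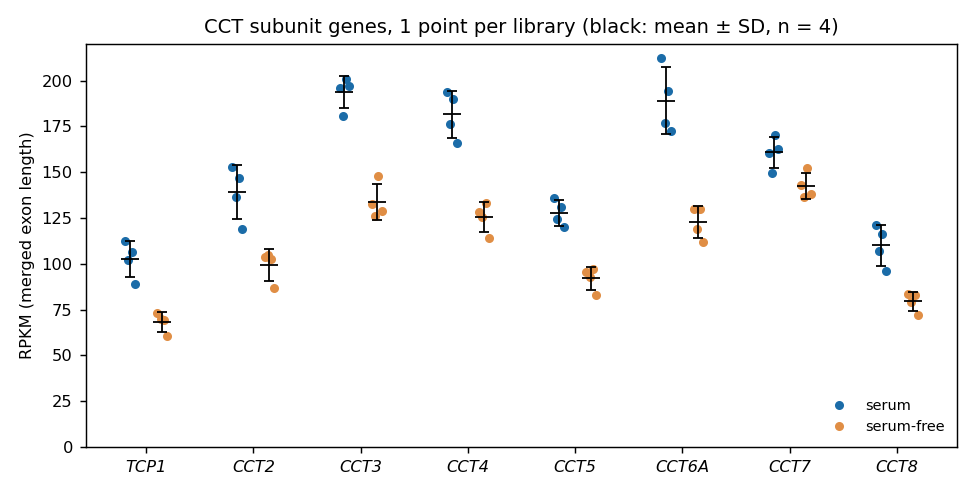
RPKM (y axis, from 0, merged exon length) of the 8 CCT subunit genes with serum (blue) and without serum (orange), 1 point per library, with mean ± SD in black (n = 4). The orange points lie below the blue points for each subunit but *CCT7*, whose groups overlap, at means of 161 RPKM with serum and 143 RPKM without.

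Of 9 co-chaperones and HSP90 partners, 5 fell. *CHORDC1*, an HSP90-binding protein, was at 182, 166, 176 and 126 CPM with serum and at 90.7, 96.2, 101 and 79.4 CPM without. It fell 1.77-fold (log2 fold change -0.82, SE 0.12, edgeR's adjusted p = 0.00215), with WT4 the lowest line in both conditions. *PTGES3* (p23), which stabilises closed HSP90, fell from 752 ± 93.1 to 476 ± 58.2 CPM (SD, n = 4, log2 fold change -0.66, edgeR's adjusted p = 0.00379). *STIP1* (HOP), which links HSP70 to HSP90, fell from 546 ± 28.5 to 378 ± 26.4 CPM, and *FKBP4*, an immunophilin of steroid receptor complexes, from 199.96 ± 6.997 to 146 ± 15.02 CPM (edgeR's adjusted p = 0.00164 and 0.00432). *AHSA1*, the activator of the HSP90 ATPase, fell by 0.31 on the log2 scale (edgeR's adjusted p = 0.0190), a call that was lost in 6 of the 12 leave-one-out fits.

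The other 4 co-chaperones were not called in the fit without the block. *UNC45A*, a myosin chaperone that binds HSP90, was at 81.3, 80.0, 86.0 and 95.9 CPM with serum and at 97.1, 97.9, 94.1 and 109 CPM without. Each of the 4 lines was higher without serum, and the log2 fold change of 0.22 had an adjusted p of 0.0723 in edgeR and 0.00501 with the replicate block. With the GC correction added to the block its log2 fold change was 0.03, and 20% of its exon bases lie within other genes. *BAG3*, an HSP70 exchange factor of selective autophagy that is itself heat-inducible, was at 135, 124, 148 and 205 CPM with serum and at 169, 170.2, 162 and 168 CPM without (log2 fold change 0.13, edgeR's adjusted p = 0.530). It was higher without serum in WT1, WT2 and WT3 and lower in WT4, and *BAG3* and *UNC45A* were both called higher when the serum library of WT4 was left out. *CDC37*, which brings kinases to HSP90, and *ST13*, which stabilises HSP70 with bound substrate, had log2 fold changes of -0.15 and -0.16 and passed with the replicate block (edgeR's adjusted p = 0.130 and 0.101 without it, 0.0467 and 0.0178 with it). With the GC correction added to the block *CDC37* was called lower (log2 fold change -0.34, edgeR's adjusted p = 7.47e-06), while *ST13* was at 0.02 and not called.

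Ratios between genes of one library do not depend on how libraries are scaled, and 4 pairs were compared with an exact permutation test over the libraries, two-sided, in which 0.0286 is the smallest p that 4 against 4 can give. The ratio of *HSP90AA1* to *HSP90AB1* counts was 1.19 with serum and 0.841 without. Its log2 value was 0.39, 0.31, 0.25 and 0.06 in WT1 to WT4 with serum and -0.19, -0.16, -0.19 and -0.46 without. The groups did not overlap, and the mean difference of -0.50 had an exact p of 0.0286, or 0.0857 when adjusted over the 4 ratios. Summed *HSPA1A* and *HSPA1B* counts were 0.0322 of the *HSPA8* counts with serum and 0.0425 without (log2 difference 0.40, exact p = 0.0571). Reads shared by both copies may be uncounted, so these values may be too low by an unmeasured amount. The uncounted share also differed between libraries, and its part in this difference was not tested. The ratio of *HSPD1* to *HSPE1* was 17.9 with serum and 20.3 without, a log2 difference of 0.18, and that of *DNAJB1* to *DNAJA1* was 0.576 and 0.685, a log2 difference of 0.25 (exact p = 0.0857 for each). All 4 ratios had an adjusted p of 0.0857, above the threshold, and each moved in 1 direction in all 4 lines. With the lines paired, a sign-flip test gave an exact p of 0.125, the smallest that 4 pairs allow.

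**Figure D4:**
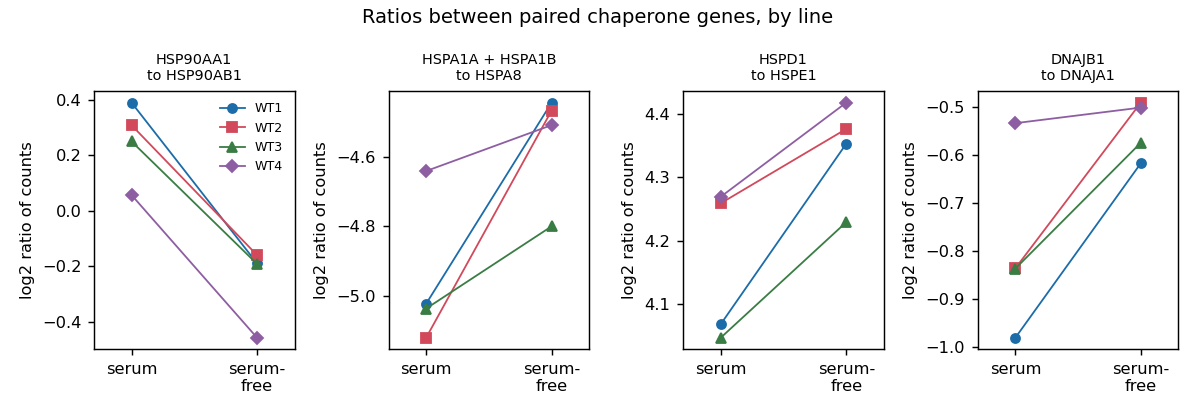
Log2 ratio of counts (y axis, different scale in each panel) for 4 pairs of chaperone genes with serum and without serum, 1 coloured line per A375 clone. The ratio of *HSP90AA1* to *HSP90AB1* falls in each clone, from above 0 to below 0, and the other 3 ratios rise in each clone, with WT4 moving least for *DNAJB1* to *DNAJA1*.

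Further genes of the chaperone pathway were read as lists, of which 92 genes were named and 86 tested. In the fit without a block 40 of the 86 fell and 3 rose, beside 14.0% and 11.1% of all tested genes, with a median log2 fold change of -0.24 against 0.03 over all tested genes. With the replicate block 51 fell and 9 rose, beside 22.4% and 23.2%, and with the GC correction added 53 fell and 6 rose, beside 22.5% and 23.9%. The counts by list that follow are from the fit without a block. *HSPB2*, *HSPB3*, *HSPB7*, *CRYAA* and *HSF5* had too few counts, and *HSPB11* had no tested row under its symbols. Of 16 further HSP90 co-chaperones 9 fell, *TOMM34* and *SUGT1* among them (log2 fold change -0.37 and -0.48, or -0.44 and -0.25 with the block and GC correction). Of 12 further mitochondrial genes 5 fell, led by *GRPEL1* and *GRPEL2*, the nucleotide exchange factors of mortalin (-0.61 and -0.65). Prefoldin, which passes actin and tubulin to CCT, and other CCT helpers gave 5 lower genes of 9, with *VBP1* at -0.64 and *PFDN2* at -0.45. With the block and GC correction these were at -0.40 and -0.49. Of 11 further HSP40 genes 5 fell, with *DNAJC2* of the ribosome at -0.68 and *DNAJC7* at -0.34. Of 3 genes for nascent-chain binding *NACA* and *BTF3* fell, by log2 fold changes of -0.25 and -0.26, and the call of *BTF3* was lost with the block and GC correction together (-0.03, edgeR's adjusted p = 0.728).

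Of 7 HSP70 exchange factors, *BAG2* and *BAG5* fell (log2 fold change -0.59 and -0.31, or -0.36 and -0.20 with the block and GC correction) and *BAG6* rose (0.25, edgeR's adjusted p = 0.0454). Under the block 3 of them fell and 2 rose, and with the GC correction added 3 fell and *BAG6* was at 0.06 and not called (edgeR's adjusted p = 0.259). Among 6 further HSP70 genes *HSPA13* of the secretory pathway was the 1 called without the block, at -0.33, and this call was lost with the block and GC correction together (-0.05, edgeR's adjusted p = 0.505). In the HSF family *HSF4*, a low transcript best known from the lens, rose from 3.39 ± 1.12 to 6.31 ± 0.84 CPM (SD, n = 4, log2 fold change 0.90, edgeR's adjusted p = 0.0198). Of 11 genes listed as heat-inducible 3 fell, *CACYBP* (-0.61) and *MRPL18* (-0.61) with the smallest p, and 8 were not called. The replicate block gave 7 lower and 1 higher of these 11, the higher being *HSPA6*, and with the GC correction added 8 were lower. Of 10 actin and tubulin genes, the main clients of CCT, 8 fell, among them *ACTB* from 5198 to 3477 CPM and *ACTG1* from 3242 to 2029 CPM (log2 fold change -0.58 and -0.68). *TUBA1A* rose from 29.6 ± 6.90 to 56.9 ± 12.3 CPM (0.94, edgeR's adjusted p = 0.0126), and reads of these closely related genes may be split or lost. *BAG6* and *TUBA1A* are named because of their values.

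**Figure D5:**
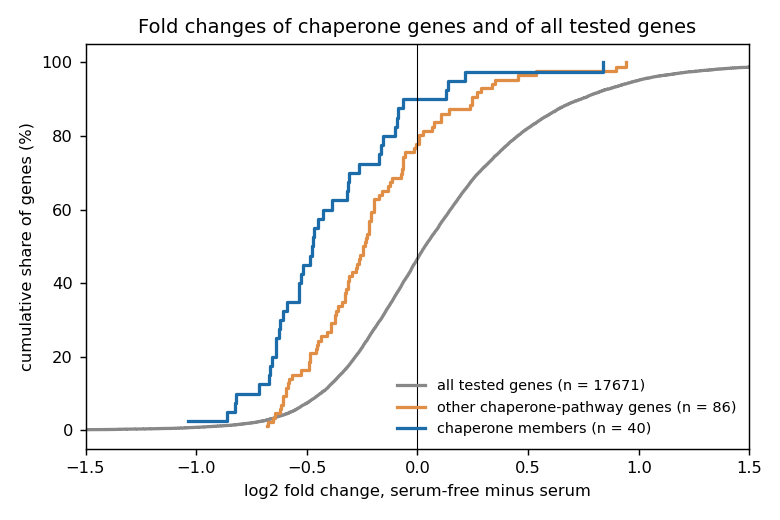
Cumulative share of genes (y axis, percent) by log2 fold change without serum (x axis, cut at 1.5 on either side) for the 40 chaperone genes (blue), 86 further pathway genes (orange) and all 17671 tested genes (grey). The blue curve crosses its middle at -0.47, the orange at -0.24 and the grey at 0.03.

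The lines ran in parallel but not at one level. In WT1 and WT4 the median log2 change of the 40 genes was -0.52 and -0.53, in WT2 and WT3 it was -0.36 and -0.44. The serum-free library of WT4 was the lowest of its group for 29 of the 40 genes, which was so for 30.8% of all tested genes, and with serum WT4 was the lowest for 24 of the 40, beside 37.5% of all tested genes. WT1 was the highest line with serum for 22 of the 40 and WT2 for 0, beside 26.1% and 17.2% of all tested genes. Medians by group lay below 0 in each line for HSP70 (from -0.49 to -0.74), HSP90 (-0.50 to -0.63), HSP40 (-0.24 to -0.58), the mitochondrial genes (-0.51 to -0.61), the CCT ring (-0.46 to -0.56) and the co-chaperones (-0.20 to -0.51). For the small heat shock proteins they ran from -0.24 in WT4 to 0.21 in WT2 and WT3.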

How the data were processed

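RNA was measured in 8 libraries of A375 cells, 1 for each of 4 single-cell lines with and without serum, grouped by the submitters' labels. The deposited tables of WT4 carry another clone name, so its identity rests on the labels. Whole-number read counts for each gene were deposited, not normalized. The submitters' processing notes name cutadapt, TopHat2 2.0.11, HTSeq and GRCh38 and give no roles, the paper's methods name hg19 and Cufflinks, and the strand setting and annotation release are not given in the sources used here, so overlapping genes are uncertain. Rows of the tables that name no gene were left out of library sizes. Of the reads on genes and in these rows together, 8.23% to 11.5% were ambiguous and 5.73% to 22.7% aligned to several places, and the row for reads on no gene holds 0 in each table.

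In R 4.3.3, edgeR 4.0.16 was used for the filter on low counts (filterByExpr), the TMM scaling and the comparison of serum-free with serum libraries by robust glmQLFit and glmQLFTest, with Benjamini-Hochberg adjustment over all tested genes and a threshold of 0.05. Exon lengths for RPKM, GC content and exon overlap were taken from GENCODE models on GRCh37, known for 17425 of 17671 tested genes. Positions and promoter windows came from RefSeq (GRCh38.p14). Symbols were matched for 55604 of 58051 identifiers. Alternatives were the line as a replicate block, a GC correction with and without it, DESeq2 1.42.0, limma 3.58.1 (voom), RLE and upper-quartile scaling, other filters on low counts, each library and line left out, and, added after the data were seen, the serum libraries of WT1 and WT2 left out together.

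Same-numbered libraries come from the same clone, which pairs them, and their deviations from the condition means correlated at 0.40 to 0.60 across genes, against at most 0.13 for different lines. No libraries of a condition were alike within sampling noise (chi-square per degree of freedom of at least 19.6 in each pair). The edgeR fits were tested on simulated counts. These counts held no difference between lines, so they cannot show how the fit without a block does on paired libraries. The members and gene lists were chosen with earlier results of these data known. All 40 members are named, those of the further lists by the 2 smallest p-values in each list, and the 3 genes most like the CCT subunits by correlation.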

Additional observations from a re-analysis of the deposited data

Results flagged for a closer look

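Dixon's test at the 95% level marked 9 of 88 groups of 4 libraries, where chance alone would give 4.4, and 7 of the 9 were libraries of WT4. Without serum, WT4 stood below the other lines for *HSPA8* (1822 CPM, others from 2469 to 2582), *HSPA14* (30.4 CPM, others from 37.1 to 38.1), *HSPH1* (403 CPM, others from 460.5 to 464), *HSPD1* (648 CPM, others from 755 to 776) and *CCT2* (367 CPM, others from 433 to 443). Its log2 ratio of *HSP90AA1* to *HSP90AB1* without serum was -0.46, with the other lines between -0.19 and -0.16. With serum, WT4 stood above the other lines for *HSF1* (131 CPM, others from 99.1 to 104). The serum library of WT2 stood below the others for *STIP1* (503 CPM, others from 556 to 565) and for *AHSA1* (139 CPM, others from 157 to 159).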

How the results depend on the processing

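The number of chaperone genes called lower was 28 and stayed between 24 and 29 when a library or a line was left out, at 26 to 33 under the other alternatives, and at 20 without the serum libraries of WT1 and WT2 (an alternative chosen after seeing the data). The number called higher was 0 and became 1 with the replicate block, with upper-quartile scaling and with at least 10 counts in every library (*UNC45A* each time), and ran from 0 to 2 over these leave-one-out fits. Directions turned for genes near 0. *HSF2* was at 0.0787 with the replicate block and GC correction and 0.0736 with GC correction alone, *ST13* at 0.0152 and 0.0138, and *BAG3* at -0.0796 without the serum libraries of WT1 and WT2. Leaving out a library or a line gave log2 fold changes from -0.251 to 0.481 for *HSPB8*, from -0.15 to 0.0191 for *HSF1* and from -0.161 to 0.0825 for *HSPB1*. DESeq2 added *CCT7* to the calls, and voom and RLE scaling changed none. With GC correction alone *DNAJA2* lost its call and *HSF1*, *DNAJB6*, *HSPB1*, *CCT7* and *CDC37* were called lower, and upper-quartile scaling took the calls of *DNAJA2* and *TRAP1*.

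Over all tested genes, 2477 were lower and 1957 higher, against 3961 and 4106 with the replicate block, 3969 and 4215 with the GC correction added, 969 to 1175 and 620 to 800 without both libraries of WT1, WT2 or WT3, 3097 and 2534 without those of WT4, and 724 and 374 without the serum libraries of WT1 and WT2. The cause of these moves was not tested. With 1 library per clone and condition the spread within a clone was not measured, *CRYAB* is limited by its depth, and levels in RPKM moved with the choice of gene length.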
